A study of Mus musculus with 4 samples.

Results

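The 10 genes described here drive the cell cycle, hold it back or mark cells that divide. They are the D-type cyclins Ccnd1, Ccnd2 and Ccnd3, their kinases Cdk4 and Cdk6, the Cip/Kip inhibitors Cdkn1a, Cdkn1b and Cdkn1c, and the proliferation markers Mki67 and Top2a. They were taken by gene symbol from 21384 genes with a symbol in the deposited tables, and all 10 had a value in every library. Where a symbol stood on several loci, the locus of highest mean level over the 4 libraries was kept. The unit is FPKM, which scales fragments by transcript length and by library size, so levels can be set side by side between genes.

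The RNA came from lenses of C57BL/6 transgenic mice. The CRYAAN101D line expresses alpha A crystallin with the change N101D, which stands for a deamidated asparagine, and the CRYAAWT line expresses the WT protein. The lines are called N101D and WT, and each gave 1 library at 4 months and 1 library at 2 months, so each of the 4 groups is a single library with no replicate check. The sources used here do not give the promoter that drives the transgenes, the number of animals or lenses behind a library or their sex, and the WT mice carry a transgene too. The design asks which genes differ between the lines at each age, and an age comparison within each line follows from it.

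D-type cyclins bind Cdk4 and Cdk6, and the active kinases phosphorylate the retinoblastoma protein, which frees E2F factors to switch on the genes of DNA replication. The Cip/Kip proteins block cyclin-dependent kinases and hold cells out of the cycle. In the lens, division takes place in the anterior epithelium, mostly in a zone just above the equator. Cells that pass the equator leave the cycle and turn into fibers, which later lose their nuclei, and in mice Cdkn1b and Cdkn1c are known to be needed for that exit.

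The promoters of the proliferation markers are shown first because these 2 genes had the widest FPKM ratios between ages among the 10 and lay in the same direction. Genes of the G2 and M phases are known for a CHR element, bound by the DREAM and MuvB complexes, and for CCAAT boxes, bound by NF-Y. The 250 bases before the annotated start are given 5′ to 3′ on the strand of the gene, from RefSeq on GRCm38.p6, with matches to the CHR and to the CCAAT box in either orientation in capitals. Mki67 lies at chr7:135716380-135716629 on the minus strand and Top2a at chr11:99024190-99024439 on the minus strand.
Mki67: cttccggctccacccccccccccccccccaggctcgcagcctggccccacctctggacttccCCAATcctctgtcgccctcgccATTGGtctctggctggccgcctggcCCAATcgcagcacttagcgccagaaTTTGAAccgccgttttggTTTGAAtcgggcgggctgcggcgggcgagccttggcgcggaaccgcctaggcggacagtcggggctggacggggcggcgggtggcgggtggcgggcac
Top2a: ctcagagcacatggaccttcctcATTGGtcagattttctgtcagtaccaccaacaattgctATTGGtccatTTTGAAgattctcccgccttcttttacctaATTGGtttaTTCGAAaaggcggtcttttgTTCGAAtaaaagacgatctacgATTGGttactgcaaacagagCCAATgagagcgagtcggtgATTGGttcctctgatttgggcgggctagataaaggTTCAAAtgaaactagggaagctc
The CHR was searched as TTTGAA or with a central variant as TTCGAA, the CCAAT box by its name, both on both strands, and the matches shown do not overlap. The Mki67 window held 2 CHR matches, which begin at -116 and -98 from the start, and 3 CCAAT matches. The Top2a window held 4 CHR matches, at -179, -140, -120 and -23, and 6 CCAAT matches. Among 32851 such mouse windows 17.1% held a CHR match, 33.8% held a CCAAT match, and 1.71% held a CHR match together with at least 2 CCAAT matches. RefSeq windows were at hand for 7 of the 10 genes, 9 windows in all, since Ccnd3 and Cdkn1a have 2 starts each. The windows of Ccnd3, Cdk4, Cdk6, Cdkn1a and Cdkn1b held 0 CHR matches. Cdkn1b held 2 CCAAT matches and the downstream start of Ccnd3 held 1. E2F cores were searched on both strands as GCGGGAA, with the variant GCGCGAA and also with GGCGGGA, which can share bases with the first form. They were found in 12.4% of all windows and, among the 7 genes with a window, in Top2a with 1 match. These matches describe letters in a window, not binding.

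The FPKM values moved in steps of single reads, from which the libraries were estimated at 24.4 to 52.9 M fragments. The estimate of 52.9 M for N101D at 4 months rested on 457 values, against 2171 to 2807 in the other libraries. The N101D library of 2 months was the shallowest, with 24.4 M, and it stood apart in 2 other respects. Xist, the RNA of the inactive X chromosome, was listed at 12.9 FPKM there and at 0.0744 FPKM in WT at 2 months, with no usable value at 4 months, while the Y-linked gene Ddx3y was listed at 0.303 FPKM there and at 5.51 to 10.03 FPKM in the other libraries. All 7 markers of pigmented tissue were lower there than in WT at 2 months, with a summed 14.5 FPKM against 352 FPKM, and the 6 leukocyte markers summed to 0.693 FPKM there, against 7.32 to 10.5 FPKM in the other libraries. A difference between lines at 2 months, or between ages in N101D, cannot be told apart from these differences of a single library. The N101D against WT comparison at 4 months and the age comparison in WT do not use it and are given for every gene.

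**Figure D1:**
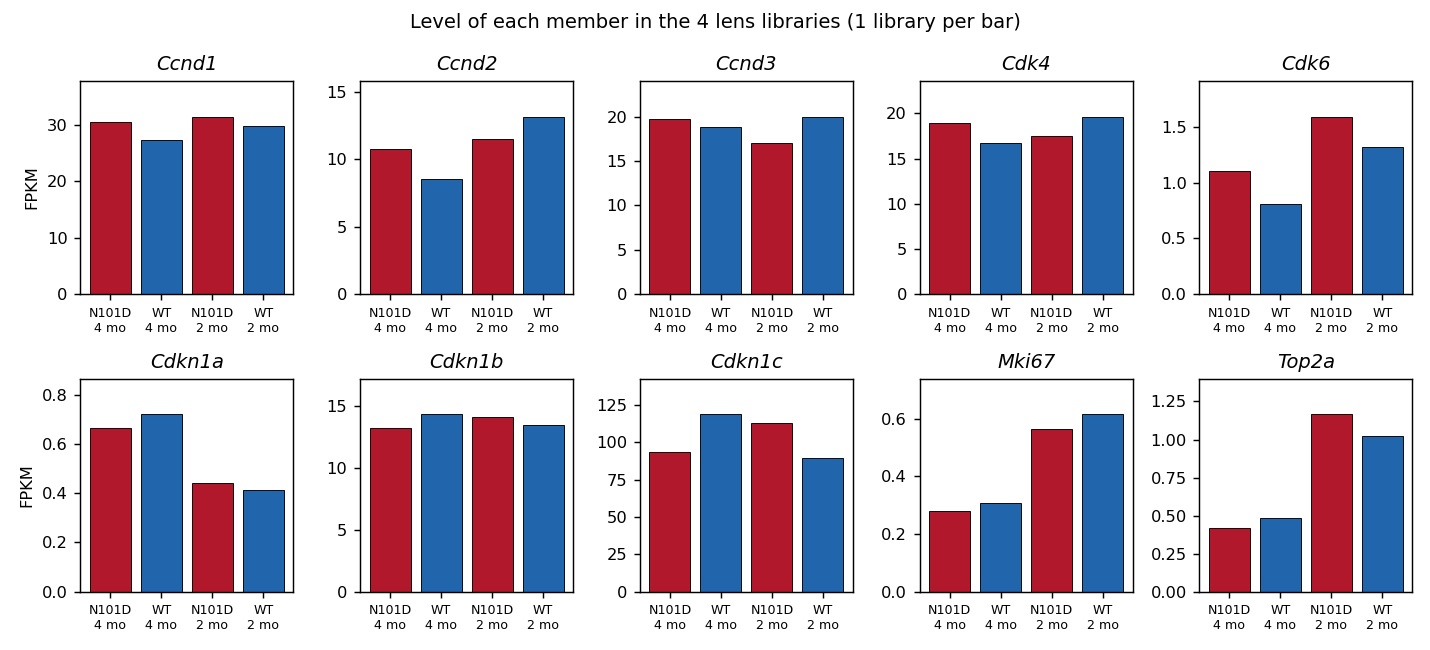
FPKM (vertical axis, each panel on its own scale from 0) of the 10 genes in the 4 lens libraries, N101D in red and WT in blue, with 1 library per bar and therefore no error bars. Mki67 and Top2a stood lower in both libraries of 4 months than in both of 2 months, and Cdkn1c had the highest level, at 89.7 to 119 FPKM.

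Cdkn1c was the most abundant of the 10 genes, with a mean of 104 FPKM over the libraries. Ccnd1 followed with 29.8 FPKM, Ccnd3 with 18.9, Cdk4 with 18.2, Cdkn1b with 13.8 and Ccnd2 with 10.97. Cdk6 at 1.21 FPKM, Top2a at 0.773, Cdkn1a at 0.559 and Mki67 at 0.442 were far lower. Neighbours in this order overlapped in range for Ccnd3 with Cdk4, for Cdk6 with Top2a, for Top2a with Cdkn1a and for Cdkn1a with Mki67. A filter of 1 FPKM in at least 1 library was passed by 8 of the 10 genes. Mki67 and Cdkn1a did not pass it, and Top2a passed through the libraries of 2 months alone.

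Among the cyclins, Ccnd1 encodes cyclin D1, which many growth signals induce. It lies on chromosome 7 at 152115836 to 152125830 (mm9, locus XLOC_036473). It was listed at 30.5 FPKM in N101D and 27.4 FPKM in WT at 4 months, and at 31.5 FPKM in N101D and 29.9 FPKM in WT at 2 months. As deposited, both N101D values lay above both WT values, by ratios of 1.11 at 4 months (95% counting interval 1.07 to 1.16) and 1.05 at 2 months (1.01 to 1.10). With equal totals of FPKM without the crystallins the ratio at 2 months was 0.758, so the lines no longer separated. Among 15144 genes above 0 in every library 7.09% were higher and 10.9% lower in N101D without overlap, and among the 10 genes here 1, Ccnd1, was higher and 0 were lower. Between ages, 4 over 2 months, its ratio was 0.968 in N101D (0.925 to 1.01) and 0.918 in WT (0.879 to 0.958). The intervals here and below rest on approximate read numbers from the recovered depth and the shortest annotated transcript, and they cover counting error only, not the spread between animals.

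Ccnd2, cyclin D2, lies on chromosome 6 at 127075181 to 127101066 (mm9, XLOC_033199). It stood at 10.8 FPKM in N101D and 8.51 FPKM in WT at 4 months, and at 11.5 FPKM in N101D and 13.2 FPKM in WT at 2 months. Both values at 4 months were below both at 2 months, and the WT library of 4 months was the lowest. Its ratio of 4 over 2 months was 0.937 in N101D (0.885 to 0.994) and 0.646 in WT (0.611 to 0.683). Between lines the ratio of N101D over WT was 1.26 at 4 months (1.19 to 1.34) and 0.871 at 2 months (0.823 to 0.922). A locus with the same symbol and span, XLOC_032596, was listed at 7.69 to 8.39 FPKM at 4 months and 6.66 to 8.72 FPKM at 2 months. Of the named loci listed next to it 0% lay on the strand of Ccnd2, against 97.0% for the kept locus. Nothing in the labels says that the kit marks strand, so the split of reads between the 2 loci is uncertain. With both loci summed the ages of Ccnd2 overlapped, and its log2 difference between ages was 0.07 in N101D and -0.41 in WT.

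Ccnd3, cyclin D3, lies on chromosome 17 at 47641945 to 47761427 (mm9, XLOC_016629), a span that Med20 and Bysl share. Its levels were 19.7 FPKM in N101D and 18.8 FPKM in WT at 4 months, and 17.1 FPKM in N101D and 20.03 FPKM in WT at 2 months. The N101D library of 2 months was the lowest and the ages overlapped. At 2 months the ratio of N101D over WT was 0.854 (0.783 to 0.930), and at 4 months the interval of the ratio of 1.05 included 1 (0.977 to 1.13). For 4 over 2 months the ratio was 1.155 in N101D (1.06 to 1.26) and 0.938 in WT (0.872 to 1.01). The 3 cyclins summed to 61.0 FPKM in N101D and 54.7 FPKM in WT at 4 months, and to 60.1 FPKM in N101D and 63.1 FPKM in WT at 2 months. Ccnd1 made up 47.4% to 52.5% of the sum, and Ccnd2 between 15.5% (WT, 4 months) and 20.9% (WT, 2 months).

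The catalytic partners were far apart in level. Cdk4 (chromosome 10, 126492065 to 126504338 on mm9, XLOC_003179) was listed at 18.9 FPKM in N101D and 16.7 FPKM in WT at 4 months, and at 17.6 FPKM in N101D and 19.7 FPKM in WT at 2 months. The line with the higher level thus differed between the ages, with ratios of N101D over WT of 1.13 at 4 months (1.05 to 1.22) and 0.893 at 2 months (0.821 to 0.970). Set by age, 4 over 2 months, Cdk4 had a ratio of 1.08 in N101D (0.992 to 1.17) and of 0.849 in WT (0.788 to 0.916). Another locus of the same span without a usable symbol, at 3.45 to 5.33 FPKM, makes the value uncertain by the reads it may share. Cdk6 (chromosome 5, 3341531 to 3530988 on mm9, XLOC_029398) was listed at 1.11 FPKM in N101D and 0.814 FPKM in WT at 4 months, and at 1.60 FPKM in N101D and 1.32 FPKM in WT at 2 months. Its values at 4 months lay below those at 2 months, and as deposited N101D was above WT at each age. With equal totals of FPKM without the crystallins the ratio of N101D over WT at 2 months was 0.867. As deposited, the ratio of 4 over 2 months for Cdk6 was 0.694 in N101D (0.614 to 0.784) and 0.615 in WT (0.538 to 0.701). N101D over WT came to 1.36 at 4 months (1.19 to 1.56) and 1.21 at 2 months (1.07 to 1.36). Cdk4 accounted for 91.7% to 95.4% of the summed FPKM of both kinases.

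Among the inhibitors, Cdkn1c encodes p57, and it held 86.6% to 88.8% of the summed Cip/Kip FPKM. It lies on chromosome 7 at 150644244 to 150649504 (mm9, XLOC_036459). At 4 months it was listed at 93.4 FPKM in N101D and 119 FPKM in WT, and at 2 months at 113 FPKM in N101D and 89.7 FPKM in WT. N101D was the lower library at 4 months and the higher one at 2 months, so neither the lines nor the ages separated in the FPKM as deposited. With equal totals of FPKM without the crystallins both libraries of 4 months stood above both of 2 months, and N101D was the lower line at both ages. N101D over WT was 0.787 at 4 months (0.763 to 0.813) and 1.26 at 2 months (1.22 to 1.31). As deposited, 4 over 2 months was 0.826 in N101D (0.797 to 0.856) and 1.32 in WT (1.28 to 1.37), and with equal totals 1.15 in N101D and 1.35 in WT. Each rested on 4760 to 8518 reads per library, the largest number among the 10 genes, and the order between lines is still that of single libraries.

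Cdkn1b, which encodes p27 (chromosome 6, 134870103 to 134875543 on mm9, XLOC_032640), had the narrowest range of the 10. It stood at 13.2 FPKM in N101D and 14.3 FPKM in WT at 4 months, and at 14.1 FPKM in N101D and 13.4 FPKM in WT at 2 months. Between ages, 4 over 2 months, the ratio was 0.935 in N101D (0.857 to 1.02) and 1.07 in WT (0.987 to 1.15), and both intervals included 1. N101D over WT was 0.922 at 4 months, with an interval just below 1 (0.853 to 0.996), and 1.05 at 2 months (0.963 to 1.15). Cdkn1a encodes p21, the inhibitor that p53 induces (chromosome 17, 29227931 to 29237667 on mm9, XLOC_016413). It stood at 0.663 FPKM in N101D and 0.721 FPKM in WT at 4 months, and at 0.440 FPKM in N101D and 0.414 FPKM in WT at 2 months. Both values at 4 months lay above both at 2 months, on about 8 to 27 reads per library. The ratio of 4 over 2 months was 1.51 in N101D (0.665 to 3.84) and 1.74 in WT (0.848 to 3.62), so a difference was not detectable at this depth. N101D over WT was 0.920 at 4 months (0.493 to 1.75) and 1.06 at 2 months (0.394 to 2.63), and these wide intervals too included 1.

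The proliferation markers had the widest ratios between ages. Mki67, whose protein coats mitotic chromosomes and is present in cycling cells, lies on chromosome 7 at 142881471 to 142908062 (mm9, XLOC_036381). Its level was 0.281 FPKM in N101D and 0.308 FPKM in WT at 4 months, and 0.564 FPKM in N101D and 0.615 FPKM in WT at 2 months. The ages did not overlap, and the lines lay close together within each age. The ratio of 4 over 2 months was 0.498 in N101D (0.392 to 0.634) and 0.5002 in WT (0.397 to 0.626), on 107 to 303 reads per library.

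Top2a, the topoisomerase that unlinks DNA strands before chromosomes separate, lies on chromosome 11 at 98854261 to 98885503 (mm9, XLOC_006307). It was listed at 0.418 FPKM in N101D and 0.484 FPKM in WT at 4 months, and at 1.17 FPKM in N101D and 1.02 FPKM in WT at 2 months. Both libraries of 4 months were below both of 2 months. The ratio of 4 over 2 months was 0.359 in N101D (0.278 to 0.462) and 0.473 in WT (0.367 to 0.607), on 86 to 258 reads per library. Between lines, the counting intervals included 1 for both markers at both ages. N101D over WT was 0.913 (0.707 to 1.18) for Mki67 and 0.864 (0.647 to 1.16) for Top2a at 4 months. At 2 months it was 0.917 (0.743 to 1.13) for Mki67 and 1.14 (0.924 to 1.40) for Top2a. In lens RNA as a whole, fewer dividing cells and less RNA per cell cannot be told apart.

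**Figure D2:**
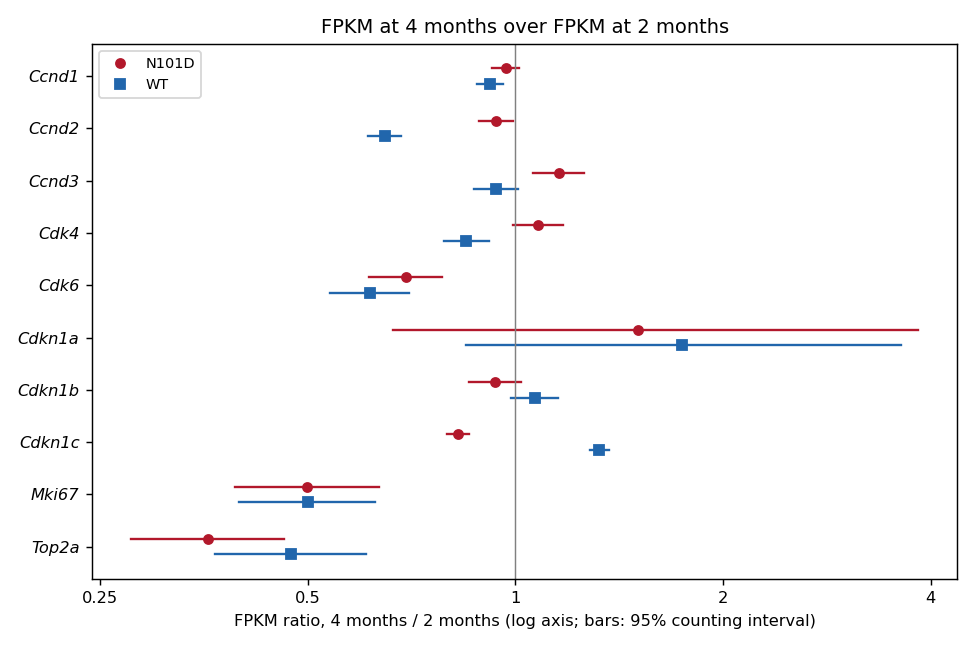
Ratio of FPKM at 4 months over FPKM at 2 months (horizontal, log axis) for the 10 genes, with N101D as red circles and WT as blue squares, 1 library per age and line. Bars are 95% intervals for counting error, and those of Mki67, Top2a, Cdk6 and Ccnd2 lay below 1 in both lines.

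Across the ages, 4 of the 10 genes (Ccnd2, Cdk6, Mki67 and Top2a) were lower in both libraries of 4 months than in both of 2 months, and Cdkn1a was higher. Of the 15144 genes above 0 in every library 17.1% were lower and 31.1% were higher in this way. On the scale of log2(FPKM + 1), which compresses differences of genes of low FPKM, 0 of the 8 genes that passed the filter differed at least 2-fold between ages in N101D, where 6.31% of all genes did, and 0 of 8 in WT, where 1.15% did. By the plain FPKM ratio with no pseudocount or filter, Mki67 and Top2a were at least 2-fold lower at 4 months in N101D, a direction and size shared by 3.78% of genes. In WT Top2a was, with 3.67% of genes, and Mki67 with its ratio of 0.5002 lay just inside the limit. With equal totals without the crystallins the plain ratio in N101D was 0.695 for Mki67 and 0.5005 for Top2a, so neither was then 2-fold lower, while in WT it was 0.51 for Mki67 and 0.483 for Top2a. The median log2 difference of the 10 genes between ages was -0.09 in N101D and -0.17 in WT, against 0.15 and -0.01 over all genes tested. The 2 age comparisons use separate libraries, but the values of each age appear to come from an estimation of their own, so levels across ages rest on separate estimations.

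The only test the design allows, a limma fit on all 4 libraries with line and age as additive terms and Benjamini-Hochberg adjustment over 11264 genes, called 0 genes for age (0% of all genes, with 1075 at an unadjusted p under 0.05). None of the members tested passed. Top2a differed by -0.53 ± 0.24 between ages (log2, SE, limma adjusted p = 0.574), Ccnd2 by -0.33 ± 0.19 (0.608) and Cdk6 by -0.33 ± 0.21 (0.628). With no filter, Mki67 differed by -0.30 ± 0.08 (limma unadjusted p = 0.0219, adjusted p = 0.549) and Cdkn1a by 0.25 (adjusted p = 0.611). In this fit the 2 lines serve as replicates of an age. Scaling to equal totals of FPKM without the crystallins moved the median of all genes by 0.37 in the N101D age comparison and by 0.02 in WT. Under it Ccnd1, Ccnd2, Cdkn1b and Cdkn1c turned from lower to higher at 4 months in N101D, with log2 differences of 0.42, 0.35, 0.36 and 0.20, against an all-gene median of 0.51. The ages of Ccnd2 then overlapped, and those of Cdkn1c separated with 4 months higher. Mki67, Top2a and Cdk6 kept both libraries of 4 months below both of 2 months under equal totals, under quantile normalization and with all loci of a symbol summed, but the sizes in N101D moved. For 4 over 2 months in N101D, Cdk6 had a ratio of 0.968 with equal totals and 0.505 with quantile normalization, so little of its difference was left under equal totals. Quantile normalization gave 0.281 for Mki67 and 0.235 for Top2a in N101D. In WT the ratios under both scalings lay between 0.477 and 0.51 for Mki67, between 0.456 and 0.483 for Top2a and between 0.594 and 0.627 for Cdk6.

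The dividing cells of the lens lie in its epithelium, whose 7 markers were led by Crim1 and Gja1. Foxe3, Cdh1 and Crim1, 3 of the 7, were lower at 4 months without overlap, and 1, Epha2, was higher, against 17.1% lower and 31.1% higher over all genes. Foxe3, a transcription factor of the epithelium, was listed at 20.3 FPKM in N101D and 19.8 FPKM in WT at 4 months, and at 26.4 FPKM in N101D and 22.7 FPKM in WT at 2 months. The 7 markers summed to 285 FPKM in N101D and 270 FPKM in WT at 4 months, and to 298 FPKM in N101D and 356 FPKM in WT at 2 months. In the FPKM as deposited the sum too was thus lower at 4 months without overlap. The markers taken singly differed between the lines. In N101D 4 were higher at 4 months and 3 lower, with a median log2 difference of 0.18 against 0.15 over all genes tested. In WT 1 was higher and 6 lower, with a median of -0.38 against -0.01. The order of these markers and of their sum under equal totals was not computed. That scaling moved the all-gene median of N101D against WT at 2 months by -0.37. At 2 months 4 of the 7 markers were higher in N101D than in WT and 3 were lower. Among the lower were Gja1, at 46.3 against 106 FPKM, and Pax6, at 27.7 against 47.5 FPKM. Set against Foxe3, Mki67 at 4 months stood at 1.38% in N101D and 1.56% in WT. At 2 months it stood at 2.14% in N101D and 2.71% in WT. Top2a at 4 months stood at 2.06% of Foxe3 in N101D and 2.45% in WT. At 2 months these shares were 4.42% in N101D and 4.50% in WT. The size depended on which epithelial marker was the denominator. For 4 over 2 months, Mki67 relative to each of the 7 markers in turn had ratios of 0.296 to 0.933 in N101D and 0.383 to 0.763 in WT, and Top2a had ratios of 0.213 to 0.671 in N101D and 0.362 to 0.723 in WT. The ratio closest to 1 was that of Mki67 to Cdh1 in N101D. Both proliferation markers were lower at 4 months without overlap relative to each of the 7 markers. The gap could be small, as for Mki67 over Cdh1 in N101D, at 3.34% at 4 months and 3.58% at 2 months. The 7 ratios of a gene share its value, so they are not separate observations. Their counting error and the share of all genes that did so were not computed. The fiber markers, led by Lim2 and Bfsp1, which encode a fiber membrane protein and the beaded filament protein filensin, summed to 7262 and 8621 FPKM in N101D and WT at 4 months and to 9411 and 8261 FPKM in N101D and WT at 2 months. Mip was left out of that sum because its locus had the status FAIL in every library.

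Markers of tissue around the lens were present as well. Pigmented tissue, led by Dct and Gpnmb, summed to 285 FPKM in N101D and 249 FPKM in WT at 4 months, and to 14.5 FPKM in N101D and 352 FPKM in WT at 2 months. Blood, led by the globins Hba-a1 and Hbb-b1, summed to 54.4 FPKM in N101D and 20.3 FPKM in WT at 4 months, and to 59.3 FPKM in N101D and 153 FPKM in WT at 2 months. In the FPKM as deposited none of these sums had the age order of Mki67 and Top2a except blood, where both libraries of 4 months lay below both of 2 months. Cornea and conjunctiva, led by Aldh3a1 and Krt12, summed to 54.2 to 140 FPKM, with Krt5 not analysed here. Fibroblast markers, led by Col1a2 and Dcn, summed to 2.61 to 21.5 FPKM, vessel markers, led by Rgs5 and Flt1, to 1.71 to 9.61 FPKM, and leukocyte markers, led by C1qa and Tyrobp, to 0.693 to 10.5 FPKM. Their part in the results was not tested.

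**Figure D3:**
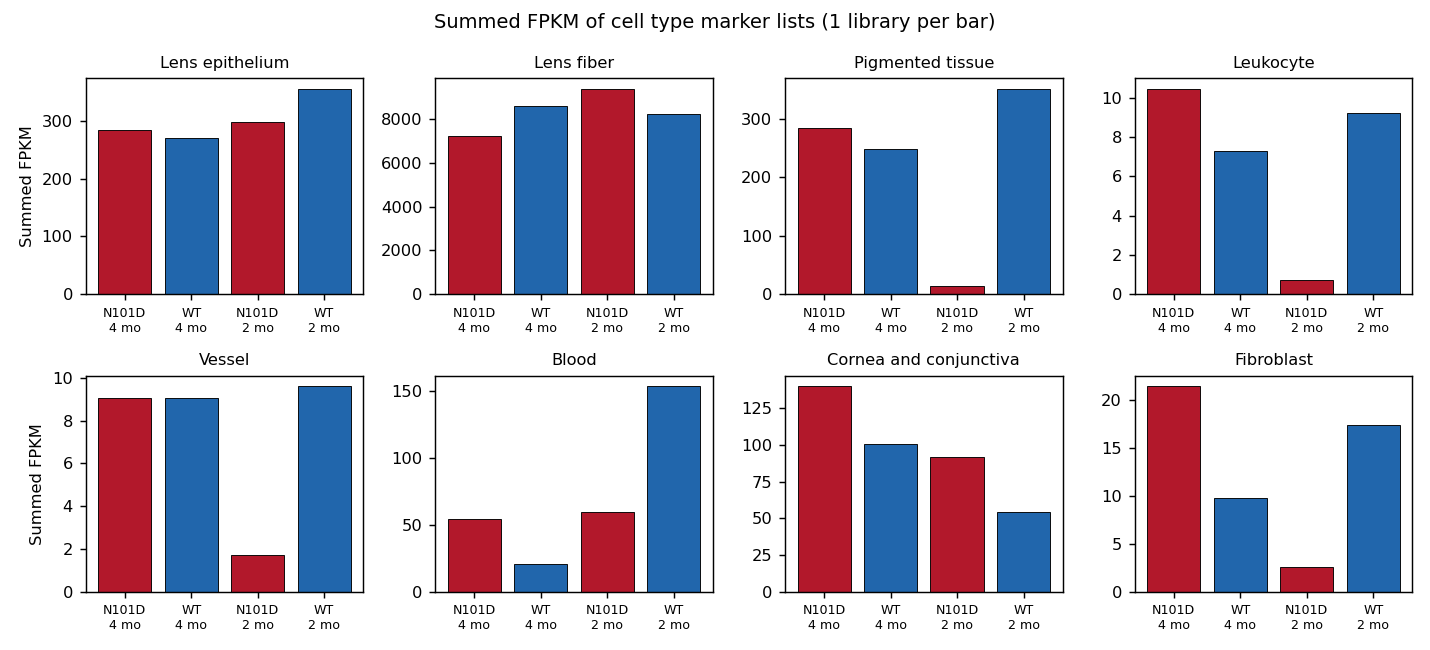
Summed FPKM of the markers of 8 cell types (vertical axis, each panel on its own scale from 0) in the 4 libraries, N101D in red and WT in blue, 1 library per bar. The N101D library of 2 months was low in pigmented tissue (14.5 FPKM), leukocyte (0.693 FPKM), vessel (1.71 FPKM) and fibroblast markers (2.61 FPKM).

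Between the lines, 0 of the 8 genes that passed the filter differed at least 2-fold at 4 months, where 0.620% of all genes did, and 0 of 8 did at 2 months, where 4.04% did. The ratios of N101D over WT ran from 0.787 (Cdkn1c) to 1.36 (Cdk6) at 4 months and from 0.854 (Ccnd3) to 1.26 (Cdkn1c) at 2 months. The counting interval lay off 1 for 6 of the 10 genes at each age. The share of all genes with such an interval was not computed, so this count cannot be set against other genes. With many reads the interval can lie off 1 at a small ratio, as for Ccnd1 at 2 months (1.05, 1.01 to 1.10). For Ccnd1 and Cdk6 N101D was higher at both ages with the interval off 1, whereas Ccnd2, Cdk4 and Cdkn1c had intervals off 1 on opposite sides. The median log2 difference of the 10 genes was 0.02 at 4 months and 0.05 at 2 months, against 0.03 and -0.09 over all genes tested. The limma fit with the additive terms called 0 of 11264 genes for line (0%, with 118 at an unadjusted p under 0.05), and the adjusted p was 1 for each of the 8 members tested. With equal totals without the crystallins, the median of all genes at 2 months moved by -0.37, and Ccnd1, Cdk6, Cdkn1b, Cdkn1c and Top2a turned from higher to lower in N101D at that age. So did Cdkn1a, which did not pass the filter, to -0.11. Cdkn1c then stood at -0.14 against an all-gene median of -0.46. At 4 months that scaling moved the all-gene median by -0.02 and turned none of the 8 members that passed the filter.

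**Figure D4:**
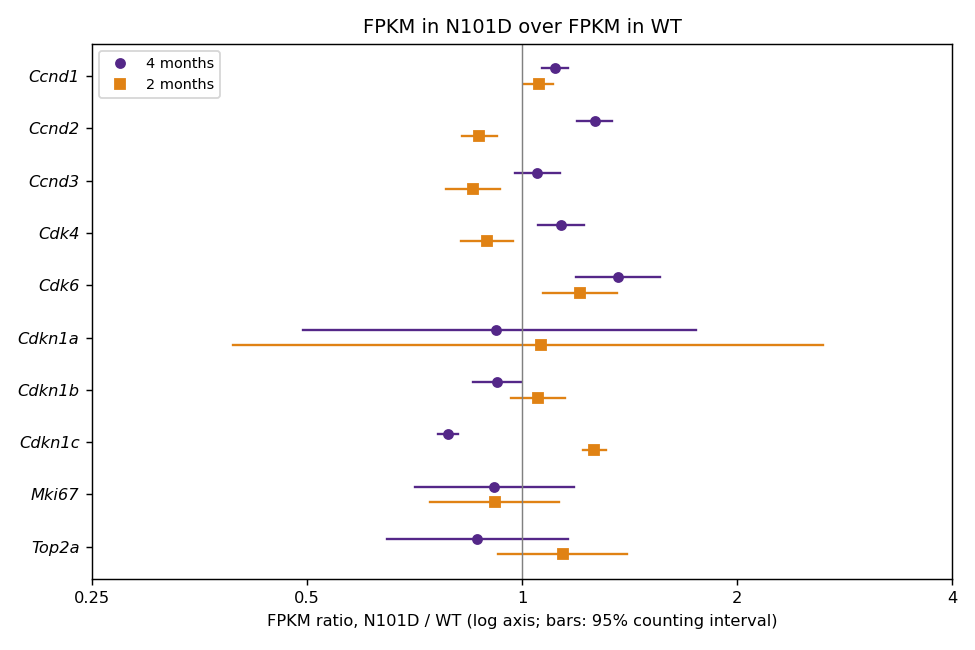
Ratio of FPKM in N101D over FPKM in WT (horizontal, log axis) for the 10 genes, with 4 months as purple circles and 2 months as orange squares, 1 library per line and age. Bars are 95% intervals for counting error, and those of Ccnd2, Cdk4 and Cdkn1c lay wholly on opposite sides of 1 at the 2 ages. The ratios of Ccnd3, Cdkn1a, Cdkn1b and Top2a also lay on opposite sides, each with at least 1 interval that included 1.

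The 3 genes whose profile over the 4 libraries was closest to that of Top2a, the gene with the widest range of log2(FPKM + 1) among the 10, were Nras, Narf and Prokr1. Likeness was the distance between profiles centred on their own mean among 11264 genes, and it was 0.020 for Nras, 0.025 for Narf and 0.027 for Prokr1. Nras, a small GTPase of growth factor signalling, was listed at 7.26 FPKM in N101D and 7.52 FPKM in WT at 4 months, and at 11.7 FPKM in N101D and 10.7 FPKM in WT at 2 months. On the scale of log2(FPKM + 1) its difference between ages is like that of Top2a at a far higher level. The added 1 compresses the difference of Top2a, so the plain FPKM ratios are not alike. Those of Nras lie closer to 1 than those of Top2a, which were 0.359 in N101D and 0.473 in WT for 4 over 2 months.

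The wider cell cycle was described with 6 lists of 88 genes, of which 86 were listed in the tables, 84 were above 0 in every library and 53 passed the filter. Of the 84, 30 (35.7%) were lower and 11 (13.1%) were higher in both libraries of 4 months than in both of 2 months, against 17.1% lower and 31.1% higher over all genes. These counts and those per list below are of FPKM as deposited. They take in genes that did not pass the filter, and a gap of any size counts. They were not computed under equal totals, which moved the all-gene median by 0.37 between ages in N101D. On the log2 scale 2 of the 53 differed at least 2-fold in some comparison. Ccne2, cyclin E2 of the G1 to S transition, was listed at 0.282 FPKM in N101D and 1.00 FPKM in WT at 4 months, and at 2.96 FPKM in N101D and 0.320 FPKM in WT at 2 months. The N101D library of 2 months stood above the other 3, with a log2 difference of 1.58 from WT at that age and of -1.63 between ages in N101D. Mdm4, which restrains p53, was listed at 9.91 FPKM in N101D and 5.25 FPKM in WT at 4 months, and at 3.79 FPKM in N101D and 5.78 FPKM in WT at 2 months. Its difference between ages in N101D was 1.19, and in WT -0.12.

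Among the other cyclins and kinases 7 of 13 genes were lower at 4 months and 1 was higher, against 17.1% and 31.1% of all genes. Ccng1, a cyclin that p53 induces, was the most abundant, at 104 FPKM in N101D and 133 FPKM in WT at 4 months, and at 157 FPKM in N101D and 135 FPKM in WT at 2 months. Cdk5, a kinase known mostly from neurons, was the gene that was higher, at 9.26 FPKM in N101D and 8.92 FPKM in WT at 4 months, and at 8.24 FPKM in N101D and 7.85 FPKM in WT at 2 months. Cdk1, the kinase of mitotic entry, was chosen here after its values were seen. It stood at 0.221 FPKM in N101D and 0.193 FPKM in WT at 4 months, and at 0.640 FPKM in N101D and 0.448 FPKM in WT at 2 months. Its ratio of 4 over 2 months was 0.346 in N101D and 0.431 in WT. No counting interval was computed for it, and it did not pass the filter.

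Of 20 genes of DNA replication 9 were lower and 4 were higher at 4 months, against 17.1% and 31.1% of all genes. Their median log2 differences between ages were -0.12 in N101D and -0.10 in WT. Pcna, the sliding clamp of the replication polymerases, was listed at 8.08 FPKM in N101D and 9.41 FPKM in WT at 4 months, and at 13.6 FPKM in N101D and 9.54 FPKM in WT at 2 months. In WT its ages were thus within a ratio of 0.987. Rrm1, the large subunit of ribonucleotide reductase, was listed at 3.76 FPKM in N101D and 4.03 FPKM in WT at 4 months, and at 5.44 FPKM in N101D and 4.53 FPKM in WT at 2 months. Rrm2, the subunit that limits the enzyme in S phase and was chosen after its values were seen, stood at 0.428 FPKM in N101D and 0.322 FPKM in WT at 4 months, and at 1.06 FPKM in N101D and 0.784 FPKM in WT at 2 months. It was lower at 4 months by ratios of 0.404 in N101D and 0.411 in WT, for which no counting interval was computed.

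Of 18 mitosis genes 7 were lower and 1 was higher at 4 months, against 17.1% and 31.1% of all genes. Bub1b, a checkpoint kinase of the spindle, stood at 2.47 FPKM in N101D and 1.61 FPKM in WT at 4 months, and at 2.64 FPKM in N101D and 2.57 FPKM in WT at 2 months. Kif20a, a kinesin of cytokinesis and the most abundant of the list, stood at 3.10 FPKM in N101D and 3.43 FPKM in WT at 4 months, and at 2.70 FPKM in N101D and 3.58 FPKM in WT at 2 months, and its ages overlapped. Of 13 E2F factors and CDC25 phosphatases 5 were lower and 0 were higher, against the same shares of all genes. E2f6, a repressor of the family, overlapped between ages, while Tfdp1, the partner that E2F proteins bind DNA with, was listed at 4.62 FPKM in N101D and 4.40 FPKM in WT at 4 months, and at 5.22 FPKM in N101D and 5.20 FPKM in WT at 2 months.

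In the list of INK4 inhibitors, which bind Cdk4 and Cdk6, and pocket proteins 1 of 8 genes was lower and 3 were higher at 4 months. This is close to the 17.1% and 31.1% of all genes. The list also held Cdkn3, which belongs to neither class and was 1 of the 3 that were higher. Cdkn2c, encoding p18, was the most abundant, at 6.64 FPKM in N101D and 7.43 FPKM in WT at 4 months, and at 8.01 FPKM in N101D and 6.55 FPKM in WT at 2 months. Rbl2, the pocket protein p130 of resting cells, ranged from 3.22 to 4.47 FPKM, and the ages overlapped for both. Cdkn2b, encoding p15 and chosen after its values were seen, stood at 2.73 FPKM in N101D and 2.74 FPKM in WT at 4 months, and at 1.49 FPKM in N101D and 1.33 FPKM in WT at 2 months. Its neighbour Cdkn2a, which encodes p16 and p19Arf and was chosen in the same way, stood at 0.808 FPKM in N101D and 0.792 FPKM in WT at 4 months, and at 0.140 FPKM in N101D and 0.381 FPKM in WT at 2 months. In WT alone, the ratio of 4 over 2 months was 2.06 for Cdkn2b and 2.08 for Cdkn2a. Read numbers and counting intervals were not computed for either gene, and Cdkn2a did not pass the filter. Of 12 genes of the p53 axis 1 was lower and 2 were higher, against 17.1% and 31.1% of all genes. Bax, which promotes cell death, was listed at 53.1 FPKM in N101D and 59.9 FPKM in WT at 4 months, and at 43.9 FPKM in N101D and 30.2 FPKM in WT at 2 months. Gadd45a, a stress-induced growth arrest gene, was listed at 16.2 FPKM in N101D and 24.6 FPKM in WT at 4 months, and at 28.3 FPKM in N101D and 30.8 FPKM in WT at 2 months.

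**Figure D5:**
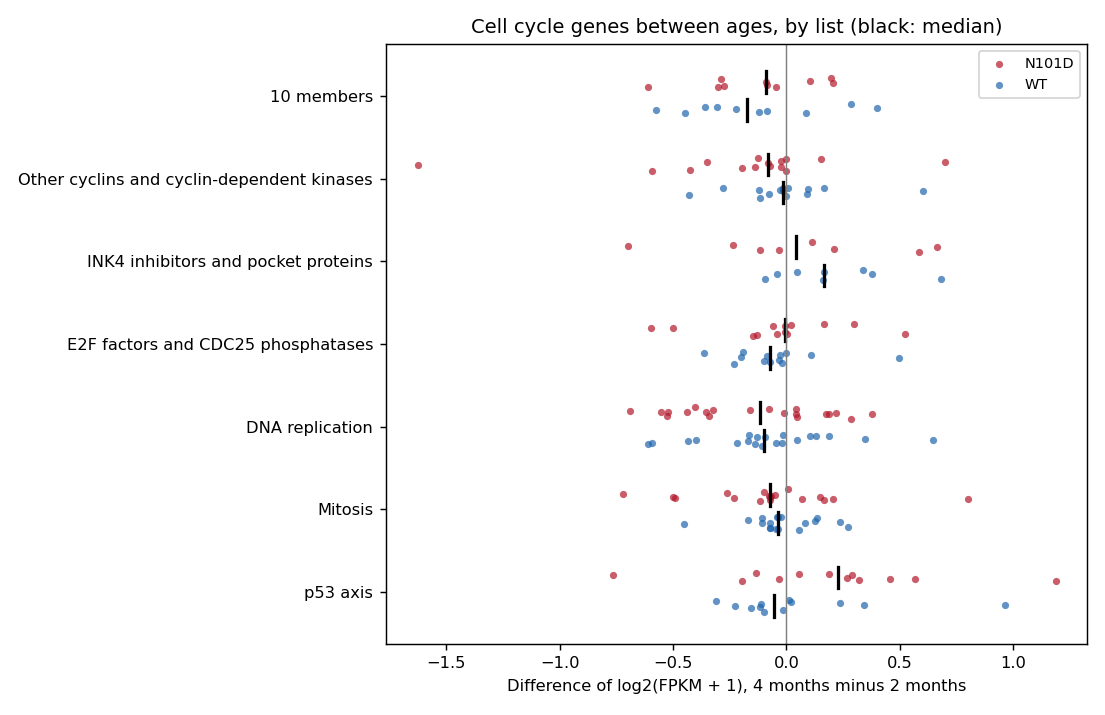
Difference of log2(FPKM + 1) at 4 months minus 2 months (horizontal) for every gene of the 10 members and of the 6 cell cycle lists, with N101D in red above WT in blue and the median of each list as a black line. List medians lay between -0.12 and 0.23 in N101D and between -0.17 and 0.16 in WT.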

How the data were processed

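Gene expression was measured by RNA sequencing of mouse lens RNA, 1 library per line and age. The authors deposited 1 FPKM table per library, with 44597 loci, mm9 positions and a status per locus, per the file headers. Cufflinks 1.0.3, Cuffdiff, TopHat 1.2.0 and CASAVA 1 are named in the submitters' processing notes, and the sources used here give no annotation. The 2 lines of an age share every status, while 2788 loci differ in status between ages, which points to 1 estimation per age. A status of FAIL (488 loci at 4 months, 289 at 2 months) was treated as missing, and 33 loci whose symbol had become a date were left out. Starts count from 0 in the tables, as 427 of 455 single-exon genes show, and are given from 1.

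Per symbol, the locus of highest mean FPKM was used. Differences are of log2(FPKM + 1), 2-fold means 1 or more, and 11311 genes with 1 FPKM or more in at least 1 library were analysed. Depth was recovered from low values, of which 84.0% to 92.9% came within 0.05 of a whole read. Read numbers are approximate, so no count test was run. The additive limma fit (limma 3.58.1, R 4.3.3) has 1 residual degree of freedom, and as reported its prior adds 3.73. Alternatives were other pseudocounts, filters, scalings and choices of locus. The plain FPKM ratio, the pseudocount of 0.1 with no filter, the levels relative to Foxe3 and to the other epithelial markers and the counts of groups that do not overlap were chosen after seeing the data.

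The members and lists were chosen with earlier results of these data known. Genes named from the wider lists were those at least 2-fold different in any comparison and the 2 of highest mean FPKM per list, besides those said to be chosen after their values were seen. Aurkb and Foxm1 were not analysed here, and 1 list of cell type markers is not reported here.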

Additional observations from a re-analysis of the deposited data

Results flagged for a closer look

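For 3 genes the difference between N101D and WT had opposite signs at the 2 ages, with both counting intervals off a ratio of 1. The log2 difference at 4 months minus that at 2 months was 0.49 for Ccnd2, 0.33 for Cdk4 and -0.67 for Cdkn1c. The share of all genes with such opposite signs was not computed. The difference between the ages was not tested, since each group has 1 library. With equal totals of FPKM without the crystallins the opposite signs of Cdkn1c were lost, with log2 differences of -0.37 at 4 months and -0.14 at 2 months. Those of Ccnd2 were then 0.29 at 4 months and -0.62 at 2 months, and those of Cdk4 0.15 and -0.60. Each rests on the N101D library of 2 months, which stood apart in Xist, in Y-linked genes and in pigmented tissue markers. Each also takes in the WT libraries, whose own ratio of 4 over 2 months was 0.646 for Ccnd2, 0.849 for Cdk4 and 1.32 for Cdkn1c.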

How the results depend on the processing

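The call for age in the members depended on the scale. In N101D, 1 member (Top2a) was at least 2-fold different with a pseudocount of 0.1, 1 with that pseudocount and no filter, and 2 by the plain FPKM ratio, against 0 as reported. In WT the plain ratio gave 1. Over all genes, 70 were 2-fold different between lines at 4 months, against 190 with the pseudocount of 0.1, 40 with a filter of 5 FPKM, 119 with all loci of a symbol summed, 46 with loci of status OK at both ages, 399 with the pseudocount of 0.1 and no filter and 965 by the plain ratio. At 2 months 456 became 884 (pseudocount), 234 (filter), 780 (equal totals of FPKM without the crystallins), 218 (status OK), 1529 (pseudocount, no filter) and 2374 (plain). Between ages in N101D 711 became 1445, 404, 1498, 346, 2486 and 3373 in the same order. In WT 130 became 346 (pseudocount), 81 (status OK), 578 (pseudocount, no filter) and 1308 (plain).

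The additive fit called 61 genes for line and 159 for age with equal totals, and 1 for age with quantile normalization and 1 with summed loci, with no member among them. With equal totals its prior had infinite degrees of freedom, against 3.73 as reported. Each gene then took the variance of the trend alone, so those counts come from a less cautious test and cannot be set against the others. The median log2 difference of the members that passed the filter was 0.11 between lines at 4 months, and 0.11 too with the pseudocount of 0.1. Over all 10 members, with no filter, it was 0.02, against -0.0136 with the pseudocount of 0.1 and -0.0234 by the plain ratio. For the members that passed the filter the median at 2 months was 0.07, against -0.38 with equal totals. Between ages in N101D their median was -0.09, against 0.35 with equal totals. The 2 cell cycle genes at least 2-fold different became 7 (pseudocount), 1 (filter of 5 FPKM), 14 (pseudocount, no filter) and 24 (plain). Among the members that passed the filter, the signs of 9 of 32 differences turned with equal totals and 1 of 32 with summed loci. Without a filter, equal totals also turned Cdkn1a between lines at 2 months to -0.11. Quantile normalization without a filter turned Cdkn1a between ages in N101D to -0.08 and Mki67 between lines at 2 months to 0.17. The cause was not tested. No paired analysis was possible because the groups share fewer than 2 replicate numbers, and the additive fit has age as a term already. Precision is limited by 1 library per group and, for Cdkn1a, by 8 to 27 reads.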
